A study of Homo sapiens with 8 samples.

Results

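Ferroptosis defence and NRF2 target genes were followed in colorectal cancer (CRC) cells after NAT10 knockdown. The 10 genes were taken from a list of names and not by a threshold on a measured value, and each was present among the 17309 genes of the count table. All 10 passed the low-count filter that left 13619 genes for testing. They are AIFM2, GPX4, SLC7A11, ACSL4, TFRC, FTH1, FTL, HMOX1, NQO1 and GCLM.

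SW480 and DLD-1, established human CRC lines, were infected with lentivirus that carried a control hairpin (shControl) or a hairpin against NAT10 (shNAT10). NAT10 is an acetyltransferase that places N4-acetylcytidine on RNA. The labels give the shControl cells as WT and the shNAT10 cells as NAT10 knockdown, and all cells were grown in DMEM with serum. Poly(A)-selected RNA was sequenced in 2 libraries per group, 8 in all, each labelled a biological replicate. No label says that the replicates came from separate infections, so the p-values measure the spread between these libraries. Each line stands for itself only, the control cells carry a hairpin as well, and the labels do not say which of the 2 NAT10 hairpins was sequenced. In bulk RNA, fewer cells that carry a transcript and less of it per cell cannot be told apart.

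Ferroptosis is an iron-dependent form of cell death in which polyunsaturated membrane lipids are oxidised. Cells hold it back by importing cystine for glutathione, which GPX4 uses to reduce lipid peroxides, and by regenerating radical-trapping quinols through AIFM2. Iron uptake and ferritin storage set the pool of reactive iron, and the transcription factor NRF2 (NFE2L2), which KEAP1 holds in check, drives many of the defence genes. NAT10 is reported elsewhere to stabilise AIFM2 mRNA in colon cancer, which is why AIFM2 was examined first.

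Between 15147805 and 17271336 counts were assigned per library. Levels below are CPM (counts scaled to library size) after TMM normalisation, and differences are log2 fold changes with standard errors (SE) from edgeR's quasi-likelihood test, called at a Benjamini-Hochberg adjusted p under 0.05 over all genes tested. The sums over marker genes alone were scaled to the total counts of each library, without TMM. The 8 epithelial markers in the table summed to between 3200 and 3865 CPM in SW480 and between 7538 and 8096 CPM in DLD-1. KRT20, a marker of differentiated colon epithelium, had 1 to 4 counts in each SW480 library and 267 to 349 in DLD-1. In shControl cells 7 of the 8 epithelial markers were called higher in DLD-1 than in SW480, and 1 was called lower (−1.42). Fibroblast markers (6 of 6 in the table) summed to at most 4.79 CPM, endothelial markers (4 of 4) to at most 1.64 CPM, and the 4 immune markers in the table to between 18.9 and 31.3 CPM. PTPRC, which defines leukocytes, was not among the genes of the table.

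The knockdown itself was checked on NAT10. In SW480 its level was 122 and 122 CPM with shControl and 23.6 and 27.9 CPM with shNAT10. DLD-1 had 121 and 121 CPM with shControl and 59.0 and 54.4 CPM with shNAT10. The remaining NAT10 mRNA was 21.0% of the control in SW480 (log2 fold change −2.25, SE 0.0869) and 47.0% in DLD-1 (−1.09, SE 0.0812). The fall was smaller in DLD-1 by 1.16 on the log2 scale (SE 0.118, edgeR adjusted p = 0.0015). Effects in the lines therefore stand against unequal knockdown throughout.

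The hairpin targets are shown because a short hairpin can also act on transcripts that share part of its sequence. Both lie in the coding sequence of NAT10 on the plus strand of chromosome 11 (GRCh38, GENCODE 29), the first across exons 8 and 9 of 29 (34118503 to 34122476) and the second across exons 26 and 27 (34141805 to 34142280). Each is printed whole in lower case, since no part of it is singled out.
shNAT10-1 target: ggccaaagctgtcttgaaa
shNAT10-2 target: cagtgacgacctagatgaa
Among the 10 genes, the longest unbroken match to a target was 5 to 9 bases for the first hairpin and 6 to 9 for the second, against medians of 8 and 7 over 13341 genes. A match to the hairpin seed was found in SLC7A11, ACSL4, TFRC and GCLM for the first hairpin, a feature of 29.95% of genes. TFRC and FTL held one for the second, as did 20.17% of genes.

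AIFM2 encodes FSP1, the NAD(P)H-dependent oxidoreductase that keeps ubiquinone and vitamin K reduced at membranes. Its level did not pass the test in either line. In SW480 the shControl libraries held 122 and 123 CPM of AIFM2, and the shNAT10 libraries 133 and 126 CPM. In DLD-1 it was at 98.2 and 100.2 CPM with shControl and at 100.3 and 103 CPM with shNAT10. Both shNAT10 libraries lay above both controls in each line, as did those of 21.7% of all genes tested in SW480 and of 17.7% in DLD-1.

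The log2 fold change of AIFM2 was 0.08 in SW480 (SE 0.0644, edgeR adjusted p = 0.51) and 0.04 in DLD-1 (SE 0.0656, edgeR adjusted p = 0.99). The 95% interval of the fold change was 0.962 to 1.16 in SW480 and 0.930 to 1.13 in DLD-1, so its lower ends allow a fall to 0.962 and 0.930 of the control level. Over both lines the mean effect was 0.06 (95% interval −0.04 to 0.16, edgeR adjusted p = 0.60), and the effects of the lines differed by −0.05 (SE 0.0919, edgeR adjusted p = 0.89). With any single library left out, the SW480 value stayed between 0.05 and 0.12 and the DLD-1 value between 0.02 and 0.06. A correction for GC content moved the SW480 value to 0.04. Each library held 1570 to 2262 AIFM2 counts. These are steady-state levels, and no decay of AIFM2 mRNA was measured.

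AIFM2 counts were shared between 2 RefSeq transcripts. NM_032797.6 took 76.9% to 90.2% of the counts of a library and NM_001198696.1 the other 9.84% to 23.1%. The share of the second transcript was 17.1% and 23.1% in the SW480 controls, 20.3% and 16.5% after knockdown, 9.84% and 17.7% in DLD-1 shControl and 22.7% and 15.3% in DLD-1 shNAT10. The shares of shNAT10 and shControl libraries overlapped in both lines. The 3 genes whose level followed AIFM2 most closely over the 8 libraries were PREB, BTD and HMGB3, with root mean square differences of 0.0288, 0.0312 and 0.0316 in log2 CPM centred on each gene's own mean.

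**Figure D1:**
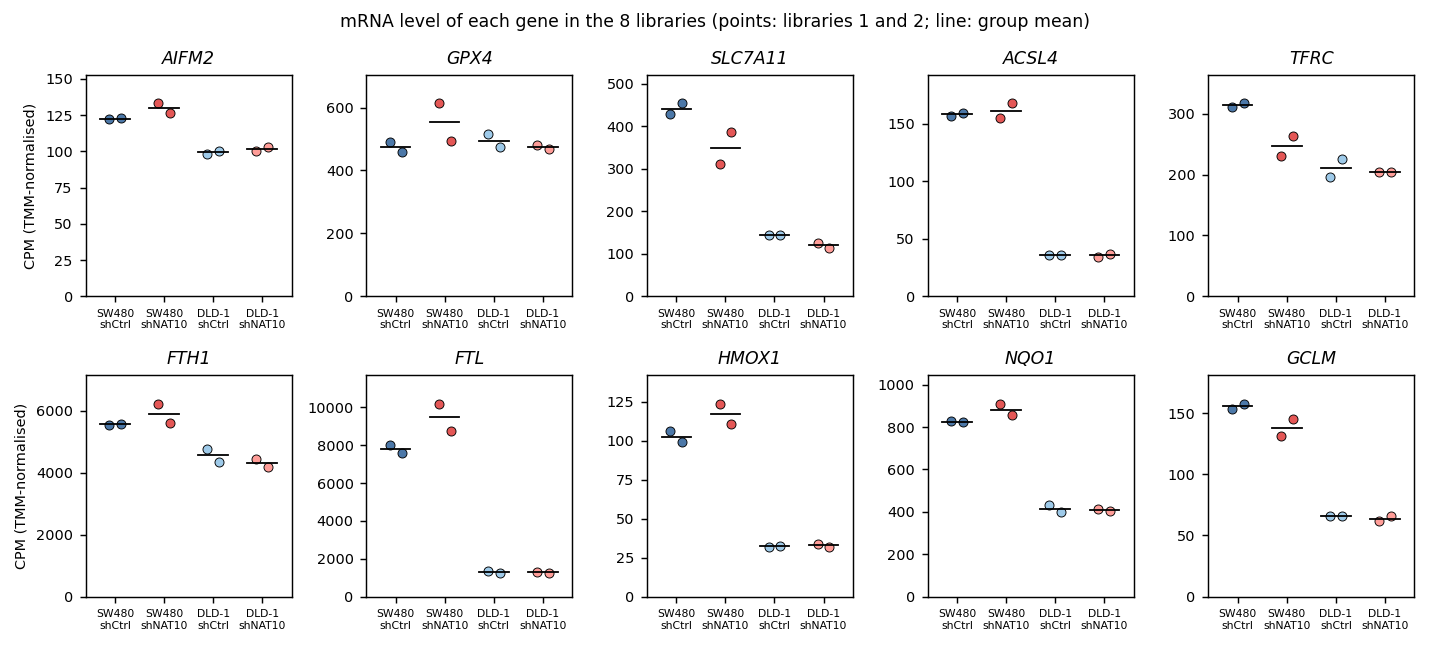
CPM (y axis, linear from 0) of each of the 10 genes in the 4 groups (x axis), with a point for each library and a line at the group mean. AIFM2 stays between 98.2 and 133 CPM in all 8 libraries, while FTL, ACSL4, HMOX1, SLC7A11 and GCLM separate the lines far more than the hairpins.

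The available promoters of the 10 genes were searched for the core of the antioxidant response element, to which NRF2 binds, spelled TGACNNNGC and read on both strands. RefSeq promoters (GRCh38.p14, 250 bases before to 50 after the start) were at hand for 7 of the 10 genes, all but SLC7A11, FTH1 and HMOX1. Sites farther upstream were not searched. AIFM2 and GCLM held the motif. Counted per promoter and not per gene, it was found in 13.35% of 35097 promoters and 14.39% of the 16176 promoters of tested genes. The stretches around it are shown with the motif in capitals, on the strand of the gene (minus for both), and the motif reads on the opposite strand. It lies 22 to 14 bases before the start of AIFM2 and 34 to 26 bases before that of GCLM. A match of letters is not a measured binding site.
AIFM2, chr10:70132828-70132857: cagcacgagtGCTGAGTCAcgccccgcccg
GCLM, chr1:93909445-93909474: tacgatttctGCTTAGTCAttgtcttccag

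Of the 10 genes, TFRC alone passed the test in SW480, and it fell. This is 1 of 10 genes lower and 0 of 10 higher, where 1.68% of all genes tested were called (0.903% lower and 0.778% higher). At an unadjusted p under 0.05, 6 of the 10 genes differed, with TFRC, SLC7A11 and GCLM lower and FTL, GPX4 and HMOX1 higher, against 19.3% of all genes (10.6% lower and 8.69% higher). Both shNAT10 libraries lay below both controls for 3 genes (background 26.2% lower) and above them for 6 (background 21.7% higher), with ACSL4 overlapping. The median log2 fold change of the 10 genes was 0.08, and that of all genes tested was −0.01. DESeq2 called FTL (higher) and SLC7A11 (lower) beside TFRC. The 1.68% is edgeR's share, and no share of all genes is given here for DESeq2 in SW480.

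In DLD-1 none of the 10 genes passed edgeR's test, where 0.0147% of all genes did. DESeq2 called none of them either. SLC7A11 alone had an unadjusted p under 0.05, as did 5.96% of all genes. The shNAT10 libraries lay below the controls for SLC7A11 only (background 18.2% lower) and above them for AIFM2 only (background 17.7% higher). The median log2 fold change of the 10 genes was −0.04, and that of all genes tested was 0. The difference between the lines was called for none of the 10 by edgeR or DESeq2 (0.00734% of all genes by edgeR), and 3 of them, FTL, TFRC and GPX4, had an unadjusted p under 0.05, beside 9.38% of all genes.

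SLC7A11 is the transport subunit of system xc−, which exchanges glutamate for cystine. In SW480 it stood at 430 and 454 CPM with shControl and at 312 and 387 CPM with shNAT10. DLD-1 gave 144 and 145 CPM with shControl and 125 and 114 CPM with shNAT10. Every shNAT10 library lay below both controls of its line. The log2 fold change was −0.34 in SW480 (SE 0.0866, edgeR adjusted p = 0.067) and −0.27 in DLD-1 (SE 0.0909, edgeR adjusted p = 0.66), and neither passed. As a mean over both lines SLC7A11 fell by 0.31 on the log2 scale (SE 0.0628, edgeR adjusted p = 0.035), the only one of the 10 genes called in that comparison, where 1.02% of all genes were. The difference between the lines was 0.07 (SE 0.126, edgeR adjusted p = 0.87).

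The call on the mean effect was lost without either SW480 shControl library or any one DLD-1 library (edgeR adjusted p from 0.12 to 0.20). It was lost with a correction for GC content (−0.21, edgeR adjusted p = 0.067). Without SW480 shNAT10 replicate 2 the effect in SW480 was −0.50 (edgeR adjusted p = 0.0012), and without replicate 1 it was −0.19 (edgeR adjusted p = 0.50). SLC7A11 has the lowest GC content of the 10 genes, 35.4%, beside 63.0% for GPX4.

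GPX4, the selenoenzyme that reduces lipid hydroperoxides, gave 492 and 458 CPM in the SW480 controls and 613 and 493 CPM after knockdown. Its values in DLD-1 were 515 and 474 CPM with shControl and 482 and 470 CPM with shNAT10. The SW480 shNAT10 libraries were far apart, and the lower of them sat next to the higher control. The log2 fold change was 0.22 in SW480 (SE 0.0887, edgeR adjusted p = 0.20) and −0.06 in DLD-1 (SE 0.0888, edgeR adjusted p = 0.98). Without SW480 shNAT10 replicate 2 the SW480 value was 0.37 (edgeR adjusted p = 0.0060) and the difference between the lines was −0.43 (edgeR adjusted p = 0.038), and without replicate 1 the SW480 value was 0.06.

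GCLM is the modifier subunit of glutamate-cysteine ligase, the first enzyme of glutathione synthesis. SW480 had 154 and 158 CPM with shControl and 131 and 145 CPM with shNAT10, so the groups did not overlap. DLD-1 had 66.2 and 65.9 CPM with shControl and 61.7 and 66.0 CPM with shNAT10. Its log2 fold change was −0.17 in SW480 (SE 0.0703, edgeR adjusted p = 0.21) and −0.05 in DLD-1 (SE 0.0752, edgeR adjusted p = 0.98).

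TFRC is the transferrin receptor, through which cells take up iron. SW480 had 312 and 317 CPM with shControl and 231 and 264 CPM with shNAT10. DLD-1 gave 197 and 226 CPM with shControl and 204 and 204 CPM with shNAT10. The groups were apart in SW480 and overlapped in DLD-1. TFRC fell by 0.35 on the log2 scale in SW480 (SE 0.0775, 95% interval −0.51 to −0.18, edgeR adjusted p = 0.041), to 0.787 of the control level, and its value in DLD-1 was −0.05 (SE 0.0785, edgeR adjusted p = 0.98). The difference between the lines was 0.30 (SE 0.110, edgeR adjusted p = 0.49), so the fall in SW480 was not shown to be particular to that line.

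The TFRC call was not stable. Omitting replicate 1 or replicate 2 of SW480 shControl raised the edgeR adjusted p to 0.19 or 0.37, and omitting replicate 1 of SW480 shNAT10 raised it to 0.25. Of the DLD-1 libraries, which share the estimate of spread, omitting replicate 1 of shControl gave 0.052 and omitting either shNAT10 replicate gave 0.097 or 0.099 as edgeR adjusted p. These fits gave values from −0.36 to −0.24. Fitting the SW480 libraries alone gave −0.33 (edgeR adjusted p = 0.14), and testing all genes without a low-count filter gave an edgeR adjusted p of 0.13. The call was kept with upper-quartile normalisation, with a filter of 10 counts in every library and with DESeq2. It was also kept with corrections for GC content or transcript length.

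The ferritin subunits store iron, with FTH1 as the ferroxidase chain and FTL as the light chain. In SW480, FTL was at 8016 and 7606 CPM with shControl and at 10193 and 8772 CPM with shNAT10. DLD-1 had 1368 and 1263 CPM of FTL with shControl and 1318 and 1262 CPM with shNAT10. FTL lay higher in both SW480 shNAT10 libraries, by a log2 fold change of 0.28 that missed edgeR's threshold (SE 0.0859, adjusted p = 0.11) and passed that of DESeq2 (adjusted p = 0.012). In DLD-1 its log2 fold change was −0.03 (SE 0.0863), and the lines differed by −0.31 (SE 0.122, edgeR adjusted p = 0.49).

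The SW480 controls held 5552 and 5570 CPM of FTH1, and the SW480 shNAT10 libraries 6221 and 5589 CPM. In DLD-1 it was at 4756 and 4349 CPM with shControl and at 4427 and 4180 CPM with shNAT10. The log2 fold change was 0.09 in SW480 (SE 0.0813, edgeR adjusted p = 0.60) and −0.08 in DLD-1 (SE 0.0813, edgeR adjusted p = 0.95). Both ferritin genes have many processed pseudogenes whose copies share their sequence, so their counts depend on how shared reads were divided.

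HMOX1, which frees iron from haem, stood at 106 and 99.2 CPM in the SW480 controls and at 124 and 111 CPM after knockdown. DLD-1 had 31.9 and 32.7 CPM with shControl and 33.9 and 31.7 CPM with shNAT10. Its log2 fold change was 0.19 in SW480 (SE 0.0763, edgeR adjusted p = 0.20) and 0.02 in DLD-1 (SE 0.0878). The SW480 groups did not overlap and the DLD-1 groups did.

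NQO1, a quinone reductase and a classical NRF2 target, gave 828 and 825 CPM in the SW480 controls and 910 and 856 CPM after knockdown. DLD-1 had 433 and 397 CPM with shControl and 414 and 402 CPM with shNAT10. On the log2 scale NQO1 was at 0.10 relative to shControl in SW480 (SE 0.0661, edgeR adjusted p = 0.45) and −0.02 in DLD-1 (SE 0.0669). NQO1 and GCLM, both known NRF2 targets, lay on opposite sides of their controls in SW480. Neither passed the test, and NRF2 activity was not measured.

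ACSL4 loads polyunsaturated fatty acids onto coenzyme A and so favours lipid peroxidation. In SW480 it was at 157 and 160 CPM with shControl and at 155 and 168 CPM with shNAT10. DLD-1 had 35.7 and 35.6 CPM with shControl and 34.3 and 36.9 CPM with shNAT10. The groups overlapped in both lines, with log2 fold changes of 0.03 (SE 0.0685) and −0.002 (SE 0.0797). The 95% interval of the fold change was 0.920 to 1.13 in SW480 and 0.887 to 1.12 in DLD-1.

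**Figure D2:**
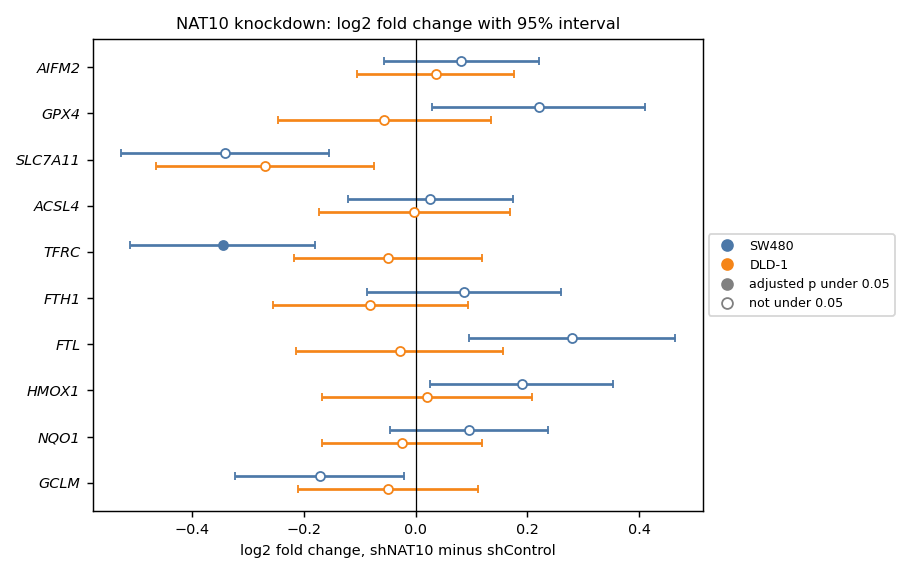
Log2 fold change of shNAT10 over shControl (x axis) with its 95% interval for each of the 10 genes (y axis) in SW480 and DLD-1, filled where the adjusted p was under 0.05. TFRC in SW480 (−0.35) is the filled point, and every DLD-1 interval except that of SLC7A11 includes 0.

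The SW480 shNAT10 libraries were unequal. Replicate 1 lay farther from the mean of the controls than replicate 2 for 9 of the 10 genes, ACSL4 being the exception, and for 67.4% of all genes tested. The median distance from the controls was 0.26 on the log2 CPM scale in replicate 1 and 0.09 in replicate 2 for the 10 genes, and 0.18 and 0.10 for all genes tested. Without replicate 2, GPX4, FTL and HMOX1 were called higher and SLC7A11, TFRC and GCLM lower, in a fit that called 15.6% of all genes tested. HMOX1 then had a value of 0.27 (edgeR adjusted p = 0.027), FTL of 0.38 (edgeR adjusted p = 0.010) and GCLM of −0.24 (edgeR adjusted p = 0.034). Without replicate 1 none of the 10 genes was called, in a fit that called 0.492% of all genes tested. The part of library quality in these values was not tested.

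Corrections for GC content and transcript length moved some of the SW480 values as well. The part of base composition and length in them was not tested. With the GC correction GPX4 was at 0.11, SLC7A11 at −0.20, GCLM at −0.07 and ACSL4 at 0.16, and with the length correction GPX4 was at 0.10, SLC7A11 at −0.19, GCLM at −0.11, ACSL4 at 0.11, FTL at 0.16 and NQO1 at 0.04. None of these was called by edgeR.

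**Figure D3:**
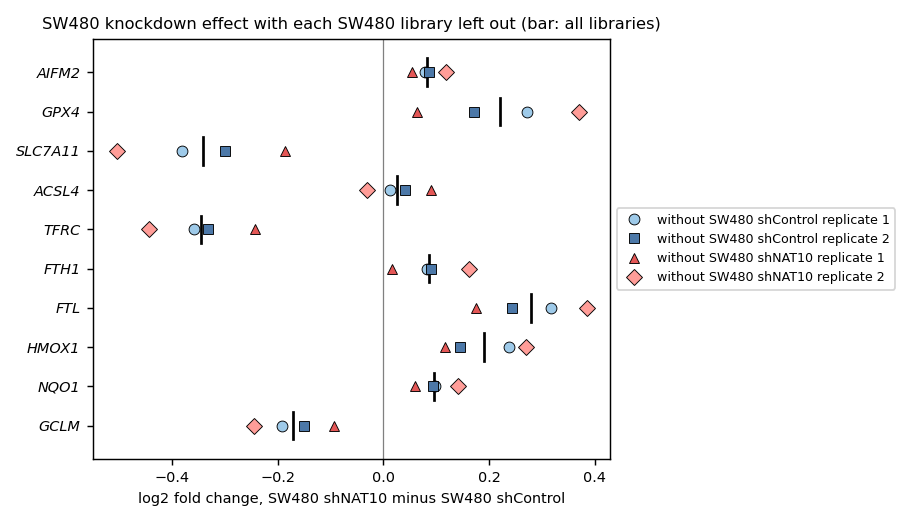
Log2 fold change in SW480 (x axis) of each of the 10 genes (y axis) with all libraries (bar) and with each SW480 library left out (symbols). With 2 shNAT10 libraries, opposite moves without replicate 1 and without replicate 2 follow largely from arithmetic, and only their size is informative. GPX4 was at 0.06 without shNAT10 replicate 1 and at 0.37 without replicate 2.

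Around the 10 genes, 122 further genes of the pathway were listed, of which 118 were tested. In SW480, 2 of them were called lower and 1 higher by edgeR, beside 0.903% and 0.778% of all genes tested. TKT, a pentose phosphate enzyme and NRF2 target, went from 452 and 456 CPM to 578 and 543 CPM and rose by 0.30 (SE 0.0644, edgeR adjusted p = 0.032). CHAC1, which degrades glutathione, went from 60.5 and 59.8 CPM to 49.3 and 42.6 CPM and fell by 0.39 (SE 0.0909, edgeR adjusted p = 0.047). FAR1, which makes fatty alcohols for ether lipids, went from 170 and 179 CPM to 129 and 143 CPM and fell by 0.36 (SE 0.0748, edgeR adjusted p = 0.030). When each of the 8 libraries was left out in turn, TKT was called only without SW480 shNAT10 replicate 2, CHAC1 only without SW480 shNAT10 replicate 1, and FAR1 only without SW480 shNAT10 replicate 2 or DLD-1 shControl replicate 2. The other omissions gave edgeR adjusted p from 0.051 to 0.36. All 3 calls were also lost without a low-count filter (edgeR adjusted p from 0.085 to 0.14), in a fit of the SW480 libraries alone (0.13 to 0.14) and on both FPKM scales (limma adjusted p from 0.069 to 0.089). DESeq2 called all 3 in the same directions (adjusted p from 0.00066 to 0.014). FAR1 was lost with the GC correction (−0.21, edgeR adjusted p = 0.055) and CHAC1 with upper-quartile normalisation (−0.38, edgeR adjusted p = 0.058). In DLD-1, 0 of the 118 were called by edgeR or DESeq2, and 4 by edgeR and 5 by DESeq2 had an unadjusted p under 0.05, beside 5.96% of all genes by edgeR. As a mean over both lines CHAC1 fell by 0.33 (SE 0.0624, edgeR adjusted p = 0.023), with a value of −0.27 in DLD-1 (SE 0.0855, edgeR adjusted p = 0.59). That call was lost without either SW480 shControl library, DLD-1 shControl replicate 1 or either DLD-1 shNAT10 library (edgeR adjusted p from 0.10 to 0.16), without a low-count filter (0.095) and on both FPKM scales (limma adjusted p = 0.066 and 0.071).

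The lists of pathway genes had these calls in SW480. None of the 9 NRF2 regulators, 19 iron handling genes, 21 genes of quinone and other radical traps or 9 genes of selenoprotein synthesis was called by edgeR, where 2, 6, 3 and 0 of them had an unadjusted p under 0.05, beside 19.3% of all genes. With the GC correction edgeR did call SLC39A14, an iron handling gene, lower and PTS, of the radical traps, higher. With the length correction it called COQ8A, of the radical traps, higher. DESeq2 called 2 of the iron handling genes, HSPB1 (0.39) and SLC39A14 (−0.26), and none of the other 3 lists. It also called AKR1B10 (0.31) among the other NRF2 targets, and these 3 genes are named for that call, after their values were seen. The share of all genes that DESeq2 called in SW480 is not given here, so these calls stand without a background. Of the 32 other NRF2 targets 1 was higher, of the 13 genes of cystine and glutathione supply 1 was lower, and of the 17 tested genes of polyunsaturated lipid supply and peroxidation 1 was lower. The medians of the 7 lists ran from −0.08 for the lipid list to 0.08 for the other NRF2 targets.

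NFE2L2, the gene of NRF2 itself, was at 245 and 245 CPM in the SW480 controls and at 219 and 223 CPM after knockdown (log2 fold change −0.15, edgeR adjusted p = 0.19). DLD-1 had 212 and 201 CPM with shControl and 188 and 190 CPM with shNAT10 (−0.13, edgeR adjusted p = 0.85). Both shNAT10 libraries lay below both controls in each line, without passing the test. Such a gap was found for 26.2% of all genes tested in SW480 and for 18.2% in DLD-1. For the mean over both lines NFE2L2 was not called by edgeR. KEAP1, the adaptor that targets NRF2 for degradation, had log2 fold changes of 0.07 and 0.10 in SW480 and DLD-1, and BACH1, the repressor of HMOX1, had −0.28 and −0.06, none of them called. TXNRD1, thioredoxin reductase and an NRF2 target, had −0.19 in SW480 and −0.17 in DLD-1, with edgeR adjusted p of 0.17 and 0.82. For the mean over both lines, TXNRD1 was at −0.18 by edgeR (adjusted p = 0.11). It was called lower by DESeq2 (−0.17, adjusted p = 0.018) and with the length correction. Among the 118 listed genes DESeq2 called 3 lower and 2 higher for that mean. Beside TXNRD1, CHAC1 (−0.33) and FAR1 (−0.22) were lower, and TKT (0.19) and HSPB1 (0.24) were higher. GCLC, the catalytic partner of GCLM, had −0.12 and −0.07, and SLC3A2, the heavy chain that pairs with SLC7A11, had 0.05 and −0.04. NCOA4, the receptor for ferritin breakdown, had −0.06 and 0.03, IREB2, an iron-sensing RNA-binding protein, −0.22 and 0.02, and LPCAT3, which inserts polyunsaturated acyl chains into phospholipids, 0.04 and 0.12. SLC40A1, the iron exporter, had 6 to 15 counts per library, too few to compare.

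The lines themselves differed far more than the hairpins. In shControl cells 9 of the 10 genes were lower in DLD-1 than in SW480 and 0 were higher by edgeR, where 73.8% of all genes were called, 38.1% lower and 35.6% higher. The libraries of the lines did not overlap for the same 9 genes (background 44.5% lower and 43.2% higher). The median log2 difference of the 10 genes was −1.12, beside −0.01 over all genes tested. Epithelial markers differed between the lines too, in both directions as given above, and their part in these differences was not tested.

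FTL showed the largest difference among the 10 genes, −2.57 (SE 0.0911), a level 5.94-fold higher in SW480. ACSL4 followed at −2.15 (SE 0.0752), 4.44-fold higher in SW480. HMOX1 stood at −1.67 (SE 0.0828), SLC7A11 at −1.61 (SE 0.0899), GCLM at −1.24 (SE 0.0730), NQO1 at −0.99 (SE 0.0671) and TFRC at −0.57 (SE 0.0779), with edgeR adjusted p of at most 1.1e-05. Neighbours HMOX1 and SLC7A11 differed by less than their standard errors.

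AIFM2 was lower in DLD-1 by 0.31 on the log2 scale (SE 0.0650, edgeR adjusted p = 0.00066) and FTH1 by 0.29 (SE 0.0813, edgeR adjusted p = 0.0052). Both calls were lost with the correction for GC content, to −0.05 (edgeR adjusted p = 0.48) and −0.08 (edgeR adjusted p = 0.35). FTH1 also missed the threshold without DLD-1 shControl replicate 2 (edgeR adjusted p = 0.061). GPX4 differed by 0.06 (SE 0.0887, 95% interval −0.13 to 0.25, edgeR adjusted p = 0.56), and by 0.29 with the GC correction (edgeR adjusted p = 0.00054) and 0.18 with a correction for transcript length (edgeR adjusted p = 0.0086), so its call turned on those choices.

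Levels can be set against each other between genes only per length, for which FPKM (fragments scaled by transcript length and library size) of the control libraries was used. In SW480 shControl FTL was the most abundant gene of all, at 13244 FPKM ± 460.4 (SD, n = 2), followed within the list by FTH1 at 6043, GPX4 at 920.2, NQO1 at 373, HMOX1 at 80.8, TFRC at 67.2, SLC7A11 at 49.8, AIFM2 at 42.8, ACSL4 at 34.9 and GCLM at 33.8 FPKM. The libraries of ACSL4 (34.4 and 35.5 FPKM) and GCLM (33.2 and 34.4 FPKM) were the only neighbours that met. In DLD-1 shControl FTH1 led at 4858 FPKM ± 315 (SD, n = 2), ahead of FTL at 2170, GPX4 at 932 and NQO1 at 186 FPKM. AIFM2, at 34.4 FPKM, ranked above HMOX1 (25.1 FPKM), SLC7A11 (15.4 FPKM), GCLM (14.2 FPKM) and ACSL4 (7.73 FPKM) in DLD-1, while in SW480 it ranked below HMOX1 and SLC7A11.

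The order of the ferritin mRNAs was thus opposite in the lines, and no ferritin protein was measured. The ratio of FTL to FTH1 in FPKM was 2.26 and 2.13 in the SW480 controls and 2.54 and 2.44 after knockdown. It was 0.446 and 0.447 in DLD-1 shControl and 0.465 and 0.468 in DLD-1 shNAT10. The shNAT10 libraries lay above the controls in both lines, by 0.30 in SW480 and 0.02 in DLD-1 as differences of the means. No background share was computed for such ratios, and reads shared with pseudogenes bear on the counts of both genes. With 2 libraries against 2 an exact permutation test cannot reach 0.05, so none was made.

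**Figure D4:**
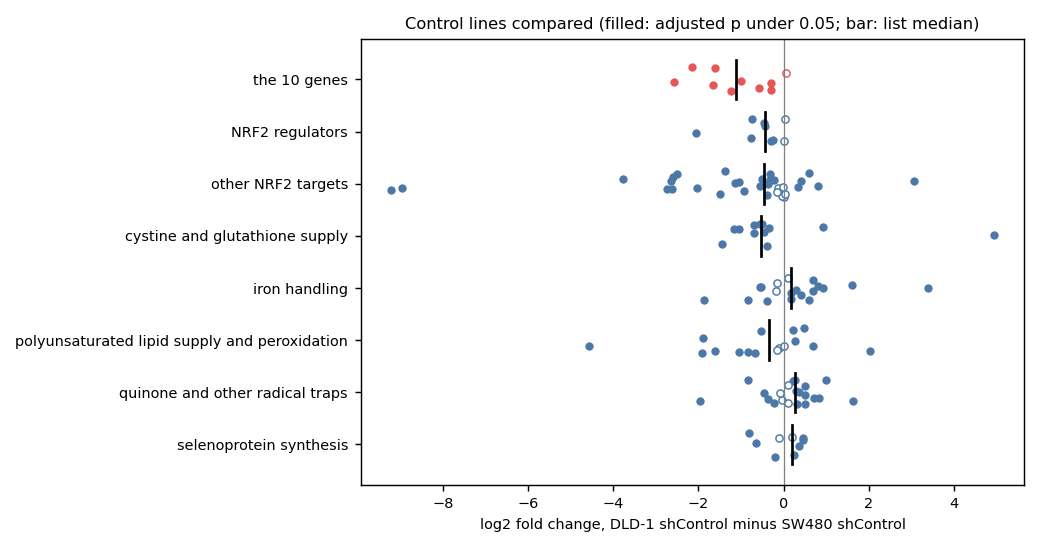
Log2 difference of DLD-1 shControl from SW480 shControl (x axis) for the 10 genes and each tested gene of the 7 pathway lists (y axis), filled where the adjusted p was under 0.05, with a bar at the list median. CBS and ELOVL5, without a count in DLD-1, are not drawn, and 9 of the 10 genes lie left of 0.

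The counts of the pathway lists stand beside 38.1% of all genes lower and 35.6% higher, and no list was tested against the rest. Of these lists, 7 of 9 NRF2 regulators were lower in DLD-1 and 0 higher, led by SQSTM1 (−2.05), an adaptor that sequesters KEAP1, and MAFF (−0.77), a partner of NRF2. Of the 32 other NRF2 targets 21 were lower and 5 higher. With the GC correction 17 of these targets were lower and 8 higher, and with the length correction 20 and 5. The NRF2 regulators then had 7 lower and 1 higher (GC) and 6 lower and 1 higher (length). No share of all genes by direction is given here for those fits. AKR1B10, an aldo-keto reductase, had 350 and 361 CPM in SW480 shControl and 0.529 and 0.651 CPM in DLD-1 shControl, and its relative AKR1C1 had 61.5 and 62.0 CPM against 0.0587 and 0.178 CPM. AKR1C3, a near relative whose reads may be confused with those of AKR1C1, went the other way, by 3.06. NFE2L2 differed by −0.25 (edgeR adjusted p = 0.0017) and KEAP1 by 0.04 (edgeR adjusted p = 0.70), which became 0.30 with the GC correction.

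Cystine and glutathione supply had 11 of 13 genes lower and 2 higher. CBS, an enzyme of transsulphuration, had 1188 counts over the SW480 shControl libraries and none in DLD-1 shControl, at least 393-fold higher in SW480 at a floor of 3 counts over the group, which covers counting error only. CBS has a near-identical gene copy, so its counts depend on how shared reads were assigned. GGT1, which cleaves extracellular glutathione, was higher in DLD-1 by 4.94. SLC3A2 (−0.55) and GCLC (−1.05) were lower, in the direction of their partners SLC7A11 and GCLM.

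Iron handling had 5 of 19 genes lower and 11 higher in DLD-1. HFE, which binds the transferrin receptor, was higher by 3.40, ACO1, the second iron-sensing protein, was lower by a difference of −1.86, and IREB2 was higher by 0.70. NCOA4 differed by 0.18 (edgeR adjusted p = 0.041), a call lost with upper-quartile normalisation, with a stricter and with no low-count filter, with DESeq2 and on both FPKM scales (adjusted p from 0.058 to 0.10) and without either shControl library of SW480, without DLD-1 shControl replicate 2 or without either DLD-1 shNAT10 library.

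Polyunsaturated lipid supply and peroxidation had 9 of 17 genes lower and 5 higher. ELOVL5, an elongase of polyunsaturated fatty acids, had 2437 counts in SW480 shControl and none in DLD-1 shControl, at least 807-fold higher in SW480 at the same floor. FADS1, a desaturase of the same route, differed by −4.58, and LPCAT3 by 0.27 (edgeR adjusted p = 0.017), a call lost with DESeq2 (adjusted p = 0.054) and without SW480 shControl replicate 2 or DLD-1 shControl replicate 2 (edgeR adjusted p = 0.10 and 0.17). ACSL4, ELOVL5 and FADS1 were therefore all lower in DLD-1, while the list as a whole held both directions. Of the 21 genes of quinone and other radical traps 5 were lower and 12 higher, with NMT2, a myristoyltransferase, at −1.97 and COQ3, an enzyme of ubiquinone synthesis, at 1.63. Of the 9 genes of selenoprotein synthesis 3 were lower and 4 higher, led by SEPHS2 (−0.82) and PSTK (−0.65), both needed to make selenocysteine. Without DLD-1 shControl replicate 2, PSTK was at −0.38 (edgeR adjusted p = 0.083).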

How the data were processed

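RNA-seq of 8 libraries in 4 groups of 2 was used. The authors deposited estimated counts per RefSeq transcript (78953 transcripts), not normalised, and FPKM values per library. The submitters' processing notes name HISAT2 2.0.4, Bowtie2 2.2.5, RSEM 1.2.12 and hg38, without their roles. The deposited FPKM values of SW480 shNAT10 replicate 2 break off early, so that 14655 transcripts (18.6%) lack one there, those of AIFM2, GPX4 and GCLM among them. A further 4 columns of group means were not used.

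Counts were summed over the transcripts of a gene, rounded, filtered (filterByExpr, minimum count 10, minimum total 15), normalised by TMM (factors 0.985 to 1.01) and fitted as 4 groups with edgeR 4.0.16 in R 4.3.3 (biological coefficient of variation 0.0585). Intervals are 95%, from the SE and the test's degrees of freedom. With 2 libraries per group all groups share the estimate of spread, and the depth set no limit for the 10 genes, each with at least 483 counts per library.

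The 10 genes and the pathway lists were chosen with earlier results of these data known. Named beside them were NAT10, 10 fixed pathway genes, every listed gene called in a knockdown comparison, the 2 listed genes per list with the largest called difference between control lines, and the 3 genes closest to AIFM2.

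Alternatives were DESeq2 1.42.0, upper-quartile normalisation, other filters, each comparison fitted alone, limma 3.58.1 on log2(FPKM + 1) and log2(FPKM + 0.1), loess corrections for GC content and transcript length (span 0.5, degree 2), a replicate term, the study's limits on fold change (1.2 and 0.83) with unadjusted p, and leaving out each library. Where the FPKM of a gene was incomplete in a library, limma dropped that library for that gene. Python 3.11.15, pandas 2.3.3, numpy 2.4.6, scipy 1.17.1 and matplotlib 3.10.9 were used. No strand setting is given in the sources used here, so overlapping antisense reads cannot be told apart.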

Additional observations from a re-analysis of the deposited data

Results flagged for a closer look

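The knockdown effect on NAT10 itself differed between the lines. It was −2.25 on the log2 scale in SW480 and −1.09 in DLD-1, a difference of 1.16 (SE 0.118, edgeR adjusted p = 0.0015), with both shNAT10 libraries below both controls in each line. The difference was no longer past the threshold on log2(FPKM + 1) (1.09, limma adjusted p = 0.14), on log2(FPKM + 0.1) (1.18, limma adjusted p = 0.084) or without DLD-1 shNAT10 replicate 1 (1.10, edgeR adjusted p = 0.073). None of the 10 genes differed between the lines in its response by the same test. Groups of 2 libraries are too small for a test of single outlying libraries.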

How the results depend on the processing

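The count of genes called was 229 in SW480, 2 in DLD-1, 139 for the mean effect and 1 for the difference. These counts moved with the settings, in that order, to 41, 1, 47 (the difference kept 1) without a low-count filter, and to 49, 1 and 31 on log2(FPKM + 1). On log2(FPKM + 0.1) they were 37 in SW480 and 32 for the mean. DESeq2 gave 15 in DLD-1, 212 for the mean and 20 for the difference. The GC correction gave 355 in SW480, 19 in DLD-1 and 4 for the difference, and the length correction 367, 33, 341 and 10. Groups fitted alone gave 29 in SW480 and 38 in DLD-1. The study's limits on fold change with unadjusted p gave 1237, 365, 425 and 1074. With a library left out the counts ran from 17 to 2162, from 1 to 29, from 25 to 1157 and from 0 to 346, each with its highest without an SW480 shNAT10 library. The comparison of the control lines kept its count within 1.5 times (10046, from 8401 to 10630).

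Replicate numbers were shared by the groups of a line, but the deviations of same-numbered libraries correlated at only 0.128 in SW480 and 0.0363 in DLD-1 and no label ties them. With replicate number as a block the counts were 1472, 63, 686 and 112. Under the block, FTL, GPX4, SLC7A11 and TFRC were called in SW480 and SLC7A11 and TFRC for the mean. Of the 9 NRF2 regulators, BACH1 was called lower in SW480, and BACH1 and NFE2L2 were called lower for the mean. Among the iron handling genes HSPB1, IREB2, NFS1 and SLC39A14 were called in SW480, 2 lower and 2 higher. COQ8A and PTS, of the radical traps, were called higher there. TKT, CHAC1 and FAR1 kept their calls in SW480. GPX4 between the lines then stood at −0.0075, NAT10 at 0.051 and KEAP1 at −0.015.

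The sign turned for values near 0. In DLD-1, ACSL4 was 0.00066 by DESeq2, 0.010 and 0.011 on log2(FPKM + 1) and log2(FPKM + 0.1) and 0.042 with the GC correction. FTL in DLD-1 was 0.0056 on both FPKM scales and 0.020 with the length correction, and HMOX1 was −0.0023 with the GC correction. FTH1 was −0.0099 in SW480 with the length correction, and its mean effect was −0.0019 on both FPKM scales and −0.029 with the length correction. The difference between lines was 0.0078 and 0.0088 for ACSL4 on the FPKM scales, and −0.023 (GC) and −0.098 (length) for SLC7A11. NAT10 between the lines was 0.22 (GC) and 0.11 (length). In SW480 KEAP1 was −0.013 and SLC3A2 −0.0044 with the GC correction.

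With a library left out, ACSL4 ranged from −0.030 to 0.091 in SW480, from −0.054 to 0.050 in DLD-1, from −0.016 to 0.046 for the mean and from −0.090 to 0.028 for the difference. In DLD-1 GPX4 ranged from −0.11 to 0.0085, FTL from −0.085 to 0.035, NQO1 from −0.084 to 0.043, TFRC from −0.14 to 0.054, HMOX1 from −0.029 to 0.066, SLC3A2 from −0.11 to 0.042, NCOA4 from −0.033 to 0.098, IREB2 from −0.034 to 0.080 and BACH1 from −0.13 to 0.0070. In SW480 KEAP1 ranged from −0.057 to 0.19, SLC3A2 from −0.019 to 0.13, NCOA4 from −0.15 to 0.033 and LPCAT3 from −0.016 to 0.11. The mean effect on FTH1 ran from −0.031 to 0.044, the difference for SLC7A11 from −0.080 to 0.24, and the line difference of GPX4 from −0.00083 to 0.12 and of KEAP1 from −0.0091 to 0.088. The causes were not tested. AIFM2 kept its sign in both lines under every alternative run. The call of SLC7A11 for the mean was lost without a low-count filter (edgeR adjusted p = 0.13) and on both FPKM scales (limma adjusted p = 0.11 and 0.12), and that of TFRC in SW480 on both FPKM scales (limma adjusted p = 0.089 and 0.10).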
